A study of Obba rivulosa with 6 samples.

Results

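Among the gene models of the white-rot fungus Obba rivulosa growing on spruce wood, 39 were raised by week 4 over their week 2 level and were still at about that level at week 8. They were chosen by their FPKM (reads scaled by the length of the model and by the total reads of the library) in all 6 libraries, after adding 1 to each value. The lowest value over the libraries of weeks 4 and 8 had to be at least 3 times the higher week 2 value. The mean values of weeks 4 and 8 had to differ by less than 1.5 times, and all 4 later libraries had to reach 10 FPKM. These 39 models were 0.314% of the 12424 listed in at least 1 library. The choice used every week and every library, so the levels below are a description and carry no p-value.

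White-rot basidiomycetes are the fungi known for breaking down lignin together with the polysaccharides of wood, by secreting oxidative and hydrolytic enzymes. Obba rivulosa is known for decaying conifer wood and for removing lignin ahead of cellulose. Peroxidases and laccases that oxidise lignin and glycoside hydrolases that cut cellulose and hemicellulose are the best known of these enzymes. The deposited identifiers carry no product names, and the functions of the 39 models are not analysed here. Each model is called by its JGI protein ID, with the model name that follows it in the deposited identifier (prefix jgi|Obbri1) in brackets at first mention.

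The fungus was the monokaryon 3 A-2, derived from the dikaryotic strain FBCC1032. It was pre-grown in a low-nitrogen liquid medium, blended, and put onto small sticks of Norway spruce on water agar, which were kept in the dark. RNA was sequenced at weeks 2, 4 and 8, with 2 samples a week, and all weeks share the strain, the inoculum type and the substrate. Each sample is the RNA of the whole mycelium on the sticks, so fewer hyphae of a kind and less RNA per hypha cannot be told apart. The labels do not say whether the 2 samples of a week were separate cultures, so the spread between them may be partly technical.

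Depth was alike in all libraries, from 4908235 to 5154075 expected counts. The 2 samples of a week differed by more than sampling noise, with a chi-square per degree of freedom of 3.25 for week 2, 24.8 for week 4 and 12.1 for week 8. The libraries of week 2 thus differed least and those of week 4 most. The study asked how the transcripts of the fungus change over a long culture on wood.

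Among models chosen as raised at week 4, keeping that level was the less common course. Choosing on high week 4 values by itself favours a lower week 8 mean. How much of the counts below this makes up was not tested, so they are a description. At week 4, 293 models stood at 3 times the higher week 2 value or more, and at 10 FPKM or more, in both libraries. By week 8, 223 of them (76.1%) had a mean that was lower by 1.5 times or more. Another 17 (5.8%) were higher by 1.5 times or more, and 53 (18.1%) were within 1.5 times. Of these 53, 39 still met the bounds in both week 8 libraries, and 14 had a week 8 library under 3-fold or under 10 FPKM. For 33 of the 293 models the week 8 mean was below the higher week 2 value. The share of all models within 1.5 times by week means is not given here. By 1 library a week it was 65.1% of 7867 models in replicate 1 and 48.1% of 7655 in replicate 2. Those models had at least 10 FPKM at both later weeks, a bound the 293 met at week 4 only, so the sets are unlike.

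**Figure D1:**
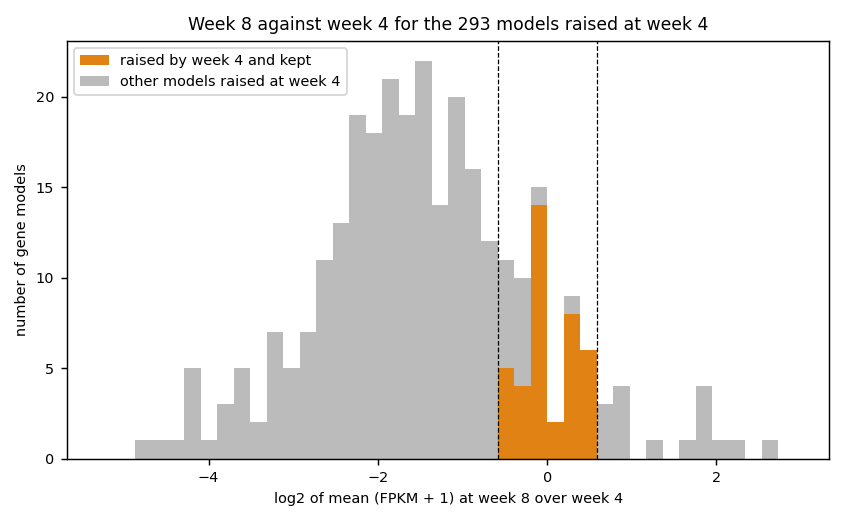
Log2 of the mean of FPKM + 1 at week 8 over week 4 (x axis) against the number of gene models (y axis), for the 293 models raised at week 4. The 39 models raised and kept lie between the dashed lines at 1.5 times together with 14 others, and 223 models lie to the left of them.

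Seen from week 8, the group was also a small share. In both week 8 libraries 316 models were at 3 times the higher week 2 value and 10 FPKM or more, and 71 of these were already so at week 4. Of these 71, 39 (54.9%) were level between weeks 4 and 8, 17 were higher at week 8 and 15 lower by 1.5 times or more. By 1 library a week, 65.1% of models of at least 10 FPKM at both later weeks were level in replicate 1. In replicate 2 this was 48.1%, so being level is not read as a trait of the 71.

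**Figure D2:**
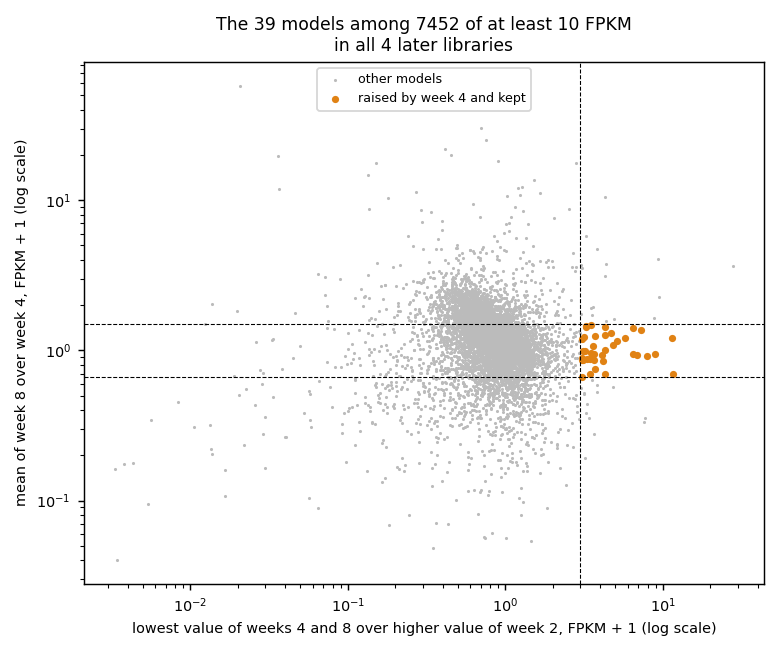
The lowest later value over the higher week 2 value (x axis, log scale) and the mean of week 8 over week 4 (y axis, log scale), both of FPKM + 1, for 7452 models of at least 10 FPKM in the 4 later libraries. The 39 models fill the box right of 3 and between the lines at 1.5 times. Of the 7452 models 71 lie at 3 or more, and the others spread both within and beyond the lines at 1.5 times.

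The group spanned a wide range of abundance. The mean over the 4 later libraries was 1000 FPKM or more for 2 models, from 100 to 1000 FPKM for 16 and under 100 FPKM for 21, of which 5 were under 20 FPKM. At week 2, 22 models had a mean of 10 FPKM or more, and 16 were under 10 FPKM in both libraries. None was at 0 at week 2. The median level over the 39 was 11.3 and 11.2 FPKM in the week 2 libraries, 81.5 and 64.5 in those of week 4, and 64.3 and 57.8 in those of week 8. Together they took 0.130% and 0.118% of all reads in the libraries of week 2. This share was 1.08% and 0.789% for week 4, and 0.960% and 0.822% for week 8.

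**Figure D3:**
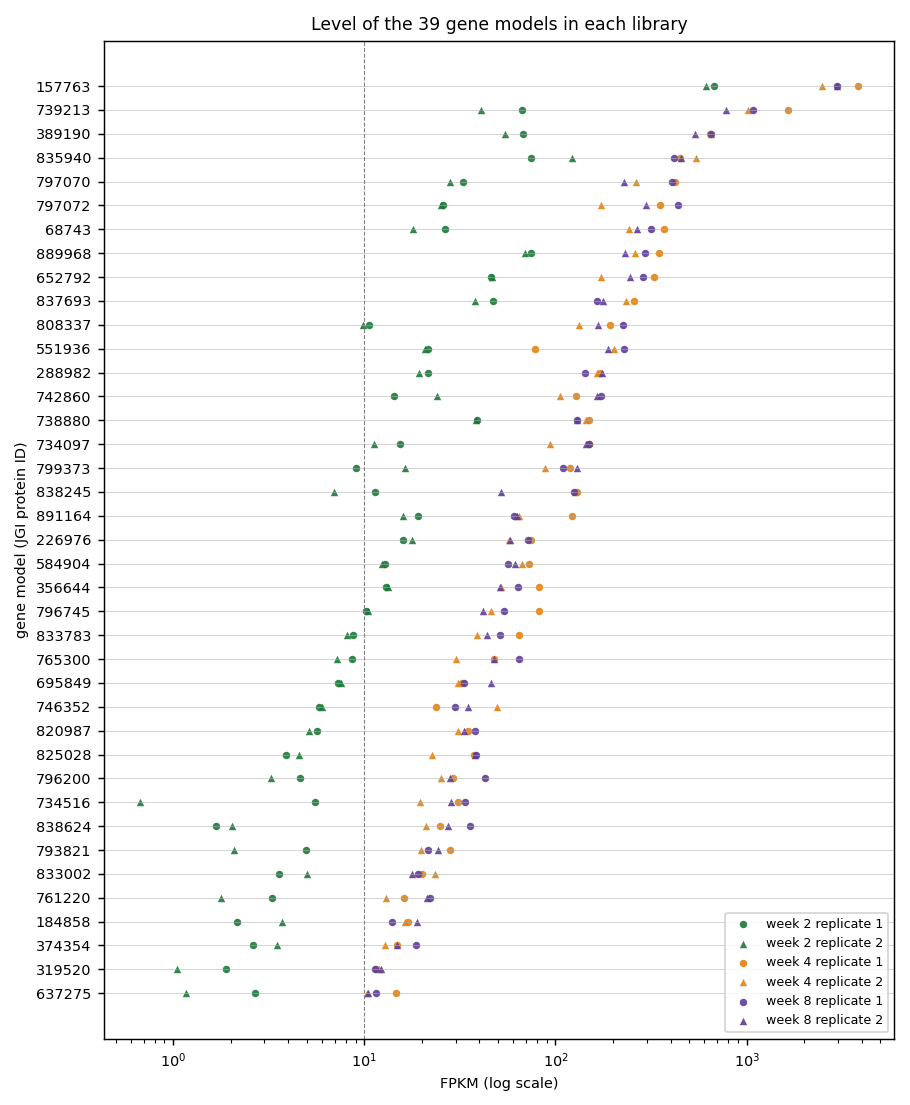
FPKM (x axis, log scale) of the 39 gene models (y axis, JGI protein ID) in each of the 6 libraries, with colour for the week and shape for the replicate. In every row both week 2 points lie left of the 4 later points, and the points of weeks 4 and 8 intermingle in 28 rows.

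The most abundant model was 157763 (CE157586_24566), at 674 and 612 FPKM at week 2, 3847 and 2481 at week 4, then 2971 and 2984 at week 8. It was abundant from the start, ranked at number 121 and 132 of all models at week 2, and ranked at number 6 to 12 in the later libraries. It held a large part of the group's reads, and without it the other 38 made up 0.621% to 0.824% of the reads of the later libraries.

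Model 739213 (e_gw1.227.15.1) stood at 66.5 and 40.9 FPKM at week 2, 1647 and 1021 at week 4, then 1080 and 783 at week 8. It moved from rank 2105 and 3373 at week 2 to between 23 and 82 later. Its lowest later value was 11.6 times the higher week 2 value, the largest ratio of the 39 on the deposited scale. After TMM rescaling it was 9.25, under the 11.6 of 808337. One of its week 8 libraries lay between the week 4 libraries and the other below both, and its mean at week 8 was 0.698 times that of week 4, close to the bound.

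Model 389190 (CE389013_466) combined a high level with an even course. It had 67.6 and 54.5 FPKM at week 2, 642 and 651 at week 4, then 647 and 540 at week 8, so the 4 later libraries differed by at most 1.21 times. Model 68743 (CE68566_403) went from 26.4 and 17.99 FPKM to 369 and 243 at week 4 and 317 and 266 at week 8. Its later weeks overlapped, and its lowest later value was 8.93 times the higher week 2 value.

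Steep rises were not limited to abundant models. Model 808337 (fgenesh1_pg.332_#_3) had 10.6 and 9.87 FPKM at week 2, 193 and 132 at week 4, then 224 and 168 at week 8, a lowest ratio of 11.5. Model 838624 (gm1.8604_g) had 1.68 and 2.04 FPKM at week 2, 24.8 and 21.1 at week 4, then 35.6 and 27.5 at week 8, a lowest ratio of 7.26. In 838624 both week 8 libraries were above both week 4 libraries, while in 808337 the weeks overlapped. Over all 39 models the lowest ratio ran from 3.07 to 11.6 with a median of 3.72, and 10 models were at 5 or more while 21 were under 4.

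A pair of neighbouring models on the same scaffold was in the group. The names of 20 of the 39 models carry a scaffold number, read here as JGI names give it and not checked against an assembly. The 20 lay on 19 scaffolds, out of 514 scaffold numbers among 8317 models whose names carry one. The pair was 797070 (fgenesh1_kg.185_#_7_#_Locus6501v1rpkm10.36) and 797072 (fgenesh1_kg.185_#_9_#_Locus6501v1rpkm10.36), at places 7 and 9 of their kind on scaffold 185, with the same locus label in their names.

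Model 797070 had 32.8 and 28.2 FPKM at week 2, 420 and 263 at week 4, then 405 and 229 at week 8. Model 797072 had 25.8 and 25.03 FPKM at week 2, 351 and 174 at week 4, then 437 and 299 at week 8. Both were high in all later libraries, and in both weeks 4 and 8 replicate 1 was above replicate 2. Another model with that label, 797076 at place 13, is not among the 39. It had 17.9 and 21.1 FPKM at week 2, 72.7 and 54.2 at week 4, then 79.0 and 67.1 at week 8, so it rose less. All 3 models had counts that were not whole in at least 1 library, a sign of reads shared out among models alike in sequence, so their separate levels are uncertain. Of the 4 other listed models of this kind on the scaffold, whose place numbers have gaps, 797066 and 797069 had 10.63 FPKM or less in every library. Model 797065 had 17.2 and 16.9 FPKM at week 2, 13.7 and 10.4 at week 4, then 58.7 and 59.4 at week 8, so it was high in the week 8 libraries only. Model 797082 had 53.0 and 60.2 FPKM at week 2, 89.9 and 109.7 at week 4, then 98.1 and 66.8 at week 8, all later libraries above both of week 2.

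The threshold of 3 cut through a continuous range. Just inside it, model 374354 (CE374177_321) had 2.60 and 3.50 FPKM at week 2, then 14.7, 12.8, 18.7 and 14.7 in the later libraries. Model 637275 (CE637098_80) had 2.69 and 1.17 FPKM at week 2, then 14.7, 10.3, 11.5 and 10.4. Model 889968 (estExt_Genemark1.C_1560010) had 74.1 and 69.4 FPKM at week 2, then 350, 261, 293 and 230. These had ratios of 3.07, 3.07 and 3.08. Just outside were 853745, 436926 and 734613, with ratios of 2.98, 2.94 and 2.93. Model 853745 had 14.6 and 14.2 FPKM at week 2, then 67.8, 46.8, 104.1 and 45.6.

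Within the later weeks the models differed in how even they were. The highest over the lowest value of FPKM + 1 in the 4 later libraries ran from 1.07 to 2.90, with a median of 1.58. The most even was 319520 (CE319343_397), with 1.88 and 1.05 FPKM at week 2 and 11.6, 12.0, 11.3 and 12.2 later. Model 738880 (e_gw1.217.23.1) was nearly as even at a higher level, with 38.7 and 38.3 FPKM at week 2, 151 and 145 at week 4, then 129 and 130 at week 8. Its weeks did not overlap, and week 8 lay slightly lower.

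At the other end, 551936 (CE551759_931) had 21.4 and 20.9 FPKM at week 2, 77.9 and 203 at week 4, then 228 and 188 at week 8. Its week 4 replicate 1 stood apart below the other 3 later libraries. Model 838245 (gm1.8225_g) had 11.3 and 6.91 FPKM at week 2, 129 and 127 at week 4, then 125 and 52.0 at week 8, with week 8 replicate 2 apart below the others. It rests on few reads, 8 and 5 counts at week 2 and 38 in that week 8 library.

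The longest models followed the same course. Model 796745 (fgenesh1_kg.171_#_20_#_Locus8414v1rpkm4.12), of 2816 bases, had 10.3 and 10.5 FPKM at week 2, 81.5 and 46.1 at week 4, then 53.6 and 41.9 at week 8. Model 746352 (estExt_Genewise1.C_90136), of 2649 bases, had 5.76 and 5.99 FPKM at week 2, 23.8 and 49.2 at week 4, then 29.8 and 34.7 at week 8. The shortest were 838245, of 174 bases, and 835940 (gm1.5920_g), of 201 bases. Model 835940 had 74.6 and 121.4 FPKM at week 2, 450 and 544 at week 4, then 419 and 454 at week 8, and its week 2 libraries differed more than its later ones.

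The other 18 models had 0.67 to 46.8 FPKM at week 2 and 13.0 to 326 FPKM later, with lowest ratios from 3.10 to 6.42. Those named here were picked after their values were seen. The most abundant was 652792, at 45.9 and 46.8 FPKM at week 2, 326 and 172 at week 4, then 286 and 244 at week 8. Model 288982 had 21.5 and 19.4 FPKM at week 2, 172 and 164 at week 4, then 143 and 174 at week 8, with the later weeks overlapping.

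Model 734097 had 15.4 and 11.2 FPKM at week 2, 149 and 93.4 at week 4, then 149 and 144 at week 8. In 3 of the 18 the week 8 mean was over 1.4 times that of week 4 on the FPKM + 1 scale. These were 742860, with 128 and 106 FPKM at week 4 and 174 and 165 at week 8, 765300, with 47.9 and 30.01 then 64.3 and 47.8, and 761220, with 16.2 and 13.0 then 22.0 and 21.3. In 742860 and 761220 both week 8 libraries were above both week 4 libraries.

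Counting error was small for most models but not for the scarce ones. At week 2, 13 models had under 30 expected counts in at least 1 library, and the lowest was 1 count, for model 734516 in week 2 replicate 2. Summed over both libraries, 734516 had 9 counts at week 2 and 73 at week 4, a ratio per library size of 8.28 with an exact 95% counting interval from 4.13 to 18.8. Model 319520 had 11 and 87 counts, a ratio of 8.07 (4.30 to 16.8), and 838245 had 13 and 179, a ratio of 14.1 (8.01 to 26.9). The lower end of the interval was under 3 for 4 models. These were 695849 at week 4 (2.28) and week 8 (2.91), 833002 at week 4 (2.97) and week 8 (2.51), 374354 at week 4 (2.94) and 891164 at week 8 (2.99). These intervals cover counting error only. They leave out error from sharing reads among models, and 695849, 374354 and 891164 had counts that were not whole, while 833002 had whole counts. For an abundant model such as 389190 the week 4 ratio of 10.6 had an interval from 9.87 to 11.4.

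Week 4 replicate 1 was the higher of the week 4 libraries for 33 of the 39 models (84.6%), against 61.2% of the 7452 models of at least 10 FPKM in all later libraries. The median log2 difference between the 2 libraries was 0.37 for the 39 and 0.11 for the 7452. At week 8, replicate 1 was the higher for 26 of the 39 (66.7%), against 45.7%. At week 2 this was so for 25 (64.1%), against 54.2%. Among 32 other models, raised at both later weeks but not level between them, replicate 1 was the higher for 22 (68.8%) at week 8. Their counts were 16 (50.0%) at week 4 and 17 (53.1%) at week 2. The part of these library differences in the choice of models was not tested. Applied without week 4 replicate 1, the rule chose 44 models, 30 of them among the 39, and without week 4 replicate 2 it chose 56, 34 of them among the 39.

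All 39 models passed the filter on low counts and entered the edgeR fit across 10889 models. Their log2 fold changes from week 2 to week 4, with TMM scaling, ran from 1.91 to 4.60 with a median of 2.60, against a median of 0.00 over all models. From week 2 to week 8 they ran from 1.42 to 3.93 with a median of 2.40, against 0.05. The fit called all 39 higher at week 4 and at week 8 than at week 2 (adjusted p below 0.05), where 19.5% and 13.2% of all models were called higher. Since the rule used these contrasts, the counts follow from the choice. Both contrasts share the week 2 libraries. With total counts in place of TMM, 32.5% of all models were called higher at week 8 than at week 2 and the median of all rose to 0.37.

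The level course between weeks 4 and 8 depended on the scale. FPKM divides by the total reads, and by that measure 16 of the 39 models had a higher mean at week 8 than at week 4 and 23 a lower one, with a median ratio of 0.961. TMM scaling, which sets the bulk of the models level, lowered week 8 in relation to week 4. With it, 10 of the 39 had a positive log2 fold change, the range was -0.87 to 0.28 and the median was -0.35, against 0.01 over all models. With total counts only the median of the 39 was -0.06, against 0.31 over all models. The rule holds the 39 within 1.5 times on the total-read scale, where the median of all models rose. The gap between the 2 medians was -0.36 with TMM and -0.37 with total counts. It is bounded by the choice, and nothing is read from it.

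By edgeR with TMM, 6 of the 39 were called lower at week 8 than at week 4 and none higher, where 20% of all models were called lower and 18.0% higher. The rule bounds this contrast, so nothing is read from these counts. The 6 were 837693 (gm1.7673_g), 891164 (estExt_Genemark1.C_2370013), 584904 (CE584727_1082), 738880, 796745 and 889968, the last just under the threshold. Model 837693 had 258 and 234 FPKM at week 4 and 165 and 176 at week 8, a log2 fold change of -0.82 ± 0.16 (SE), over 47.3 and 38.2 FPKM at week 2. Its weeks did not overlap, and it was the single model still called with total counts.

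Model 891164 had 19.0 and 15.9 FPKM at week 2, 122 and 64.5 at week 4, then 60.7 and 63.2 at week 8, a log2 fold change from week 4 of -0.87 ± 0.24 (SE). Its week 4 replicate 1 was apart above the other later libraries. Model 584904 had 12.8 and 12.4 FPKM at week 2, 72.8 and 66.7 at week 4, then 56.7 and 61.2 at week 8, a log2 fold change of -0.54 ± 0.14 (SE). The count of 6 depended on the library left out. It became 2 when either replicate 1 or replicate 2 of week 2 was dropped. Those libraries are not compared in this contrast, but they enter the filter on low counts, the scaling and the spread. The median log2 fold change of the 39 was still -0.35, and the cause of the lower count was not tested. The median of the 39 was -0.14 without week 4 replicate 1 and -0.36 without week 4 replicate 2. It was -0.32 without week 8 replicate 1 and -0.27 without week 8 replicate 2. With total counts only, 33.4% of all models were called higher at week 8 and 12.4% lower.

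**Figure D4:**
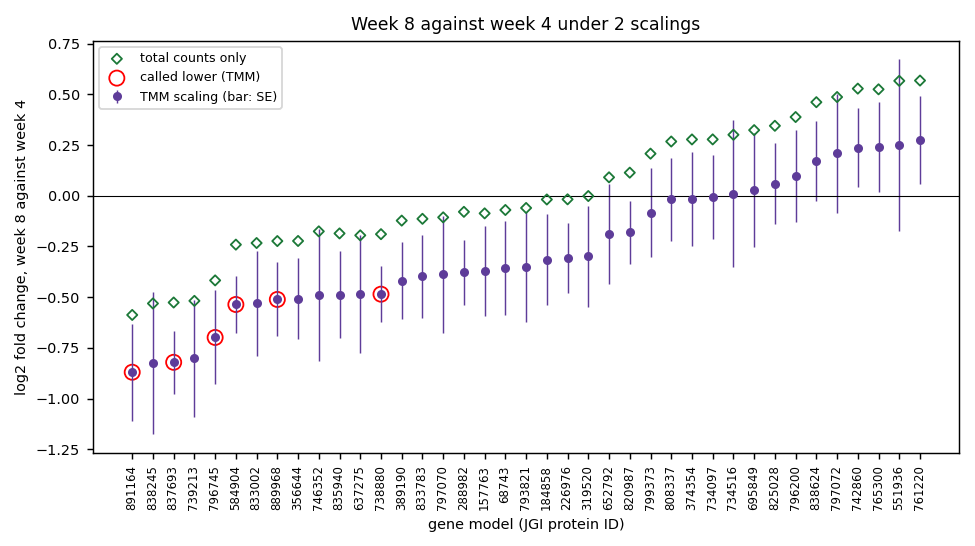
Log2 fold change from week 4 to week 8 (y axis) of the 39 models (x axis, JGI protein ID), with TMM scaling (filled, bars are SE) and with total counts only (diamonds). Total counts place every model higher than TMM does, and the 6 circled models were called lower with TMM.

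Rescaling the FPKM values by TMM factors before the rule was applied chose 29 models, of which 24 were among the 39. Of the 15 not chosen again, 12 were under 3-fold over week 2, 5 had weeks 4 and 8 more than 1.5 times apart and 2 had a library under 10 FPKM, and some failed more than 1 bound. Among those not chosen again were 739213, with a week 8 to week 4 ratio of 0.574, and 837693, with 0.567. The 5 models gained had been more than 1.5 times apart between weeks 4 and 8 as deposited. Models 157763, 389190, 68743, 808337, 797070 and 797072 were chosen on both scales.

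The rule was applied to 1 replicate number and the models read in the other, whose libraries had no part in that choice. The labels do not say that the 2 samples of a week were separate cultures, so the other libraries may not be independent. The replicate 1 libraries chose 100 models. In the replicate 2 libraries all 100 were higher at both later weeks than at week 2, as were 3057 of the 7655 models of at least 10 FPKM at both later weeks. Of the 100, 45 (45.0%) were at least 3-fold higher at both, where 1.5% of the 7655 were. Only 91 of the 100 reached 10 FPKM at both later weeks there, so the shares rest on unlike sets. The median ratio of the 100 was 4.05 in the libraries that chose them and 2.84 in the others. The replicate 2 libraries chose 57 models. All 57 were higher at both later weeks in the replicate 1 libraries, as were 3744 of the 7867 models of at least 10 FPKM there. Of the 57, 38 (66.7%) were at least 3-fold higher, against a background of 2.14% of the 7867. Only 54 of the 57 reached 10 FPKM at both later weeks there. The median ratio of the 57 was 3.80 where chosen and 3.66 where not.

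Being level between the later weeks was about as common among the chosen models as among all in the libraries not used. Of the 100 models, 55 were within 1.5 times between weeks 4 and 8 in the replicate 2 libraries, where 48.1% of the 7655 models were. Of the 57, 39 were so in the replicate 1 libraries, where 65.1% of the 7867 were. The whole rule was met in each replicate number on its own by 29 models, 27 of them among the 39. Each of the remaining 12 members failed in 1 replicate number because weeks 4 and 8 were too far apart there, 7 in replicate 2 and 5 in replicate 1. With 1 library a week on each side, these comparisons carry no p-value.

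**Figure D5:**
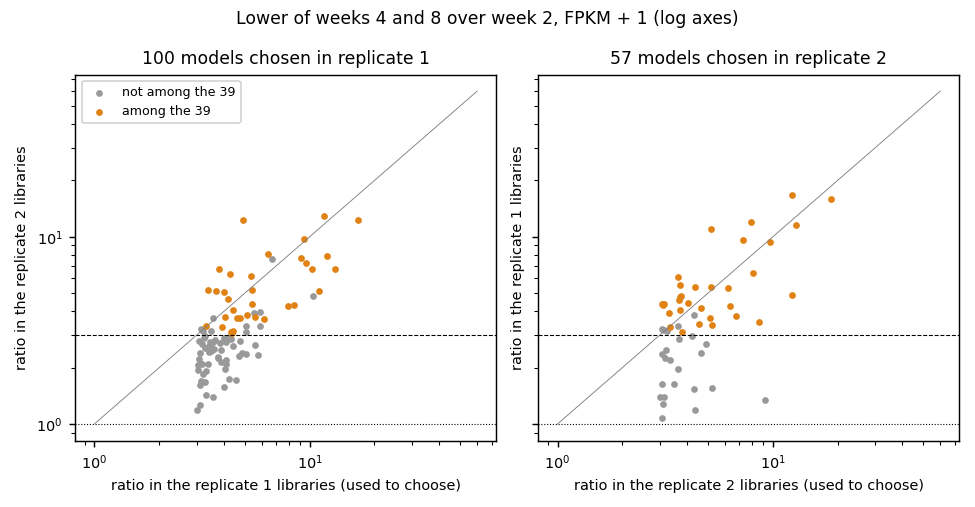
Lower of weeks 4 and 8 over week 2, of FPKM + 1, in the libraries used to choose (x axis, log scale) and in the other libraries (y axis, log scale), for 100 models chosen in replicate 1 and 57 in replicate 2. Every point lies above the dotted line at 1, and 45 and 38 points lie on or above the dashed line at 3.

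Length, shared reads and the kind of model name were not used by the rule, and are given here as counts with no test. Their median length was 1239 bases, against 1243 over all models and 1458 over the 7452 of at least 10 FPKM in all later libraries. Models under 450 bases were 7 of the 39 (17.9%), against 6.71% of all models and 4.32% of the 7452. Of the 32 models raised at both later weeks but not level between them, 0 were that short. The cut at 450 bases was not planned, and the shortest of these 32 had 462 bases, so the 0 depends on the cut. FPKM of short models rests on fewer reads at the same level.

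Counts that were not whole in at least 1 library were found for 11 of the 39 (28.2%), against 11.8% of all models and 9.14% of the 7452. Among the 32 models raised but not level, 6 (18.8%) had such counts. The 28 of the 39 with whole counts in every library included 157763, 739213, 389190 and 68743. By the kind of name, CE models were 13 of the 39 (33.3%), against 22.3% of all models and 15.9% of the 7452. Names beginning with gm1 were borne by 6 (15.4%), against 8.22% and 7.13%, and fgenesh1_kg names by 6 (15.4%), against 22.9% and 27.6%. Between the week 2 libraries the median absolute log2 difference was 0.23 for the 39 and 0.10 for the 7452. Median week 2 levels were 12.6 and 36.1 FPKM.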

How the data were processed

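RNA of 6 samples, 2 at each of weeks 2, 4 and 8, was sequenced. Each deposited file lists gene models with a length, an expected count (estimated reads, not normalized) and FPKM, per the file headers. The tools were BWA, Bowtie and RSEM, per the submitters' processing notes. Versions, genome build and filters: not given in the sources used here. Models missing from a file were taken as 0. Members were found from the FPKM as deposited with a pseudocount of 1. Rounded expected counts were fitted with edgeR 4.0.16 in R 4.3.3 (quasi-likelihood, robust, TMM, a mean per week). Models were filtered with filterByExpr at a minimum count of 10, with Benjamini-Hochberg over all models. The fit was also run on simulated counts with few changed models and no shift in scale between weeks, so that run does not test the scaling. SEs come from the F statistic. Counting intervals are exact binomial. Alternatives were limma 3.58.1 on log2 FPKM with pseudocounts of 1 and 0.1, DESeq2 1.42.0, other scalings, no filter, a replicate block and each library left out. The members and lists were chosen with earlier results of these data known. Product lists could not be filled. Models named are the 6 most abundant, the 6 with the highest ratio, those nearest the 3-fold bound, the 3 most and 3 least even, the 2 longest and 2 shortest, neighbouring pairs and the 4 called between weeks 8 and 4 with the smallest adjusted p, and any others are said to be outside this rule or were named for their counts.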

Additional observations from a re-analysis of the deposited data

How the results depend on the processing

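The number of models chosen was 118 with a bound of 2-fold over week 2 and 18 with 4-fold, against 39. Within 1.5 times of 39 were the counts for a narrower bound between weeks 4 and 8 (26) and one of 2 times (54), 5 and 20 FPKM (41 and 31), a pseudocount of 0.1 (45), both rescalings (29 each), whole counts only (28) and, chosen after seeing the data, lengths of at least 300 bases (36). It was 38 to 56 with 1 library left out. All 39 were called higher than at week 2, at weeks 4 and 8, by every alternative run, which says little since they were chosen for it. The models called changed between weeks 4 and 8 were 6, against 1 with limma at either pseudocount, 1 with total counts only and 2 with only the 4 libraries compared, and 1 to 12 with 1 library left out, where the lone library of a week is assumed to vary like the others. The count was 7 with DESeq2, 7 with size factors (RLE) in edgeR and 6 with no filter on low counts. The cause of these differences was not tested. The replicate numbers are not said to pair samples, and differences between replicates 1 and 2 correlated between weeks by -0.15 to 0.01. With the replicate block 8 models were called changed, and with week 8 numbers crossed, added after seeing the data, 6. The share of models chosen in replicate 1 that were at least 3-fold higher in replicate 2, 45.0%, was 45.3% after TMM rescaling and 100% for any rise. The median length of the 39 was 99.7% of that of all models and 85% of that of models of at least 10 FPKM later. Depth limits the week 2 levels of 13 models.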
